A study of Mus musculus and Homo sapiens with 9 samples.

Results

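The plasma cell program genes examined here were Jchain, Xbp1, Prdm1, Sdc1, Tnfrsf17, Tnfrsf13b, Pou2af1, Derl3, Fkbp11 and Creld2, taken by symbol from the mouse gene table. All 10 were among its 43432 rows, and all 10 were among the 15350 genes with enough counts to be tested. RNA sequencing was performed on CD3+ T cells isolated from spleen, in 2 libraries from mice labelled Irf2bp2 KO and 3 from mice labelled Wild type, called knockout and control here. By the methods of the study, the knockout mice were Vav-iCre+/-;Irf2bp2fl/fl and the controls Vav-iCre-/-;Irf2bp2fl/fl, so both carried the floxed alleles and the knockout mice alone carried the Cre transgene. Vav-iCre deletes in the hematopoietic lineage as a whole, B cells and plasma cells included, and not in T cells alone. Strain, sex and age of these animals were not given in the sample labels used here. The same series holds RNA sequencing of J.gamma1, a human T-cell acute lymphoblastic leukemia cell line derived from Jurkat, with 2 libraries of a control hairpin (shNC) and 2 of a hairpin against IRF2BP2 (shIRF2BP2).

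Plasma cells are the end stage of B cell differentiation and secrete antibody. The transcription factor BLIMP1, encoded by Prdm1, shuts off the B cell program, while XBP1, the transcription factor made when the endoplasmic reticulum (ER) sensor IRE1 splices its message, expands the ER for secretion. Several of these genes are not exclusive to plasma cells. BLIMP1 is also made by effector and regulatory T cells, Xbp1 is expressed in most cells, and ER folding proteins such as CRELD2 are found in any cell under secretory load.

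The mouse libraries held between 16668577 and 37177523 counts, the shallowest being control 3. Irf2bp2 had 4145, 4594 and 1915 counts in controls 1 to 3 and 0 counts in both knockout libraries, at least 1469-fold lower when set against 3 counts per library. The samples were examined for 20 T cell markers, all of which were detected, though detection does not measure purity. Their summed level was 11195 to 13079 counts per 1000000 library counts (CPM) in the controls and 8614 and 9003 CPM in the knockouts. In 17 of the 20, both knockout libraries were lower than every control. The share of all genes tested with that arrangement was not computed. By edgeR, 1 of the 20 was called lower, Cd8b1 (adjusted p = 0.0211), beside 0.15% of all genes tested. At an unadjusted p under 0.05, 12 of the 20 were lower and 0 higher, beside 6.01% lower and 10.2% higher of all genes tested. DESeq2 called 8 lower and 0 higher, beside 1.86% lower and 6.1% higher of all genes tested. Without control 1, knockout 1 or knockout 2 the adjusted p of Cd8b1 was 0.0893, 0.256 and 0.19 by edgeR. Calls were lost over the whole mouse table without control 1, where edgeR called 6 genes higher, beside 412 with all libraries. The loss of a call there was not particular to single genes. CPM here are relative to library totals scaled by edgeR's trimmed mean of M-values (TMM). In bulk RNA, a difference in the number of cells of a type cannot be told apart from a difference in RNA per cell.

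The promoters of the members were inspected for letters known from the unfolded protein response and from B cell transcription factors, since XBP1 itself is a member and Derl3, Creld2 and Fkbp11 encode ER proteins. RefSeq (GRCm38.p6) gave 11 promoters for the 10 genes, 2 of them for Fkbp11, each running from 250 bases before to 50 bases after the start site. The ER stress response element, read as CCAAT, 9 bases and CCACG on either strand, was found in Derl3 and Creld2 and in 0.119% of all 32851 mouse promoters of this length. The word TGACGTGG, which holds ACGTG within it, was found in Pou2af1 and in 0.676% of all promoters. These 3 promoters are shown because they hold the longest words found, and the capitals mark the matched letters, the ER stress response element standing on the other strand and so reading CGTGG, 9 bases, ATTGG. Each runs 5′ to 3′ up to the base before the start site.
Derl3, chr10:75893148-75893397, plus strand: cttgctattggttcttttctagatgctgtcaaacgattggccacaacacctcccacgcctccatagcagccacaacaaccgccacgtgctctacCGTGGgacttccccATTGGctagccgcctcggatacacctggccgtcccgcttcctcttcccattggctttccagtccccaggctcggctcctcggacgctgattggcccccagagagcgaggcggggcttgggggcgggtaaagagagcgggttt
Creld2, chr15:88819396-88819645, plus strand: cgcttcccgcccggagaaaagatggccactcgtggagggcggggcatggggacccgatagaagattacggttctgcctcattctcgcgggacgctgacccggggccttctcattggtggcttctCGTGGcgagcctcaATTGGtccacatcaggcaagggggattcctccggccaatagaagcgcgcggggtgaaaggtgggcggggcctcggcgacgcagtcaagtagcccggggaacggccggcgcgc
Pou2af1, chr9:51213440-51213689, plus strand: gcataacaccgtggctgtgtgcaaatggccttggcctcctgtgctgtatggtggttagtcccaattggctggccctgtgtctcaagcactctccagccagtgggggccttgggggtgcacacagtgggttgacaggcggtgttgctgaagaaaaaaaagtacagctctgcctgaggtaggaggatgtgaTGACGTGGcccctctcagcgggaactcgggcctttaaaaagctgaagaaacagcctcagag
In Derl3 the element lay 156 to 138 bases before the start site, and in Creld2 it lay 126 to 108 bases before it. In Pou2af1 the word lay 61 to 54 bases before the start site. The core CCACG by itself was found in 6 of the 10 members and in 32.8% of all promoters, ACGTG in 4 members and 19.6% of promoters, and the E-box CAGGTG in Jchain, Prdm1, Derl3 and Xbp1 and in 20.2% of promoters. The octamer ATGCAAAT (1.74% of promoters) and the second ER stress response element, ATTGG, 1 base and CCACG (0.037%), were found in 0 of the 10. A match is a match of letters in this window and shows no binding.

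Loss of Irf2bp2 went with higher Prdm1 and with no other change among the 10 genes that passed the test. Prdm1 rose by 1.42 on the log2 scale, from 10.9 ± 2.82 CPM in the controls (SD, n = 3) to a mean of 29.3 CPM in the knockouts. Across the mouse genes tested, 2.68% were called higher and 0.15% lower in the knockout at an adjusted p under 0.05 (edgeR quasi-likelihood test, Benjamini-Hochberg adjustment). Among the members, 1 of 10 was called higher and 0 of 10 lower, while 5 (Prdm1, Derl3, Sdc1, Fkbp11 and Xbp1) were higher and 0 lower at an unadjusted p under 0.05, beside 10.2% higher and 6.01% lower of all genes tested. DESeq2 called 2 higher and 0 lower, adding Derl3, beside 6.1% higher and 1.86% lower of all genes tested. The log2 fold changes of 9 of the 10 were above 0 with a median of 0.73, beside a median of -0.018 and a share of 47.9% above 0 over all genes tested. The members' median was 1.17 without control 1 and 0.495 without knockout 1. In the same 5 members both knockout libraries lay above all 3 controls, an arrangement that 18.2% of all genes tested showed. The members share libraries, and 7 of the 10 were highest in knockout 1.

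**Figure D1:**
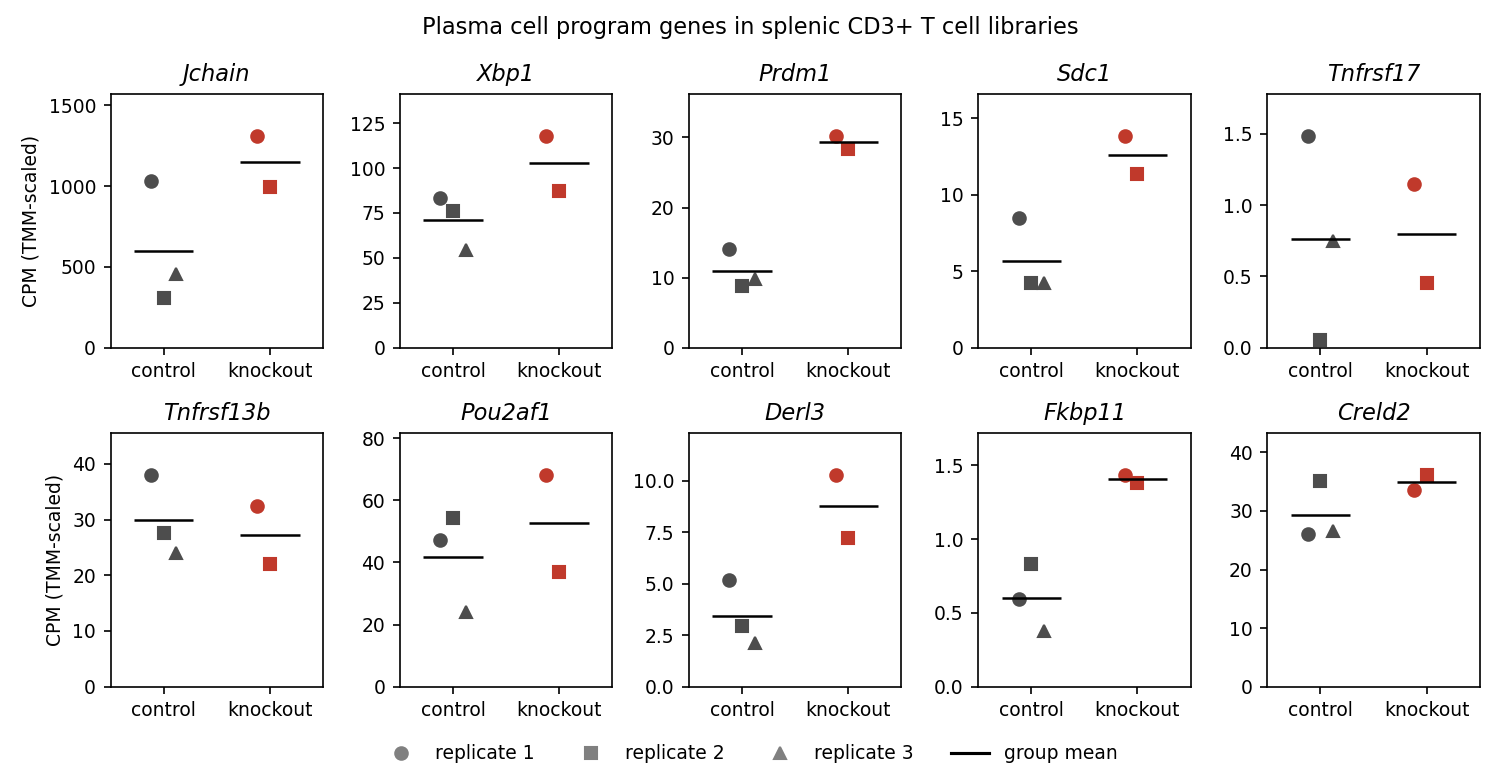
Level of each of the 10 genes in every mouse library, in TMM-scaled CPM on a linear axis from 0, with controls in grey, knockouts in red, the replicate number as the symbol and the group mean as a line. In Prdm1 the knockout libraries (30.2 and 28.4 CPM) stand apart from the controls (8.80 to 14.1 CPM), while in Jchain control 1 (1029 CPM) lies above knockout 2 (991.5 CPM).

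Among the transcriptional regulators, Prdm1 (ENSMUSG00000038151, chromosome 10, 44437177 to 44528501, mm10), the BLIMP1 gene, was at 14.1, 8.80 and 9.82 CPM in controls 1 to 3 and at 30.2 and 28.4 CPM in knockouts 1 and 2. The counts were 523, 318 and 157 against 1158 and 1009. The lower knockout library was 2.01 times the highest control, and the knockouts differed from each other by a ratio of 1.06. The log2 fold change was 1.42 (SE 0.24, 95% interval 0.86 to 1.99, adjusted p = 0.0317 by edgeR). The call depended on single libraries: without control 2 it was kept (adjusted p = 0.033), and without control 1, control 3, knockout 1 or knockout 2 the adjusted p was 0.0629, 0.0574, 0.233 and 0.222, with log2 fold changes between 1.30 and 1.66.

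Xbp1 (ENSMUSG00000020484, chromosome 11, 5520659 to 5525893) is the secretory regulator introduced above, and its spliced and unspliced messages are summed in a gene count. It was at 83.2, 76.2 and 54.6 CPM in the controls and 118 and 87.5 CPM in the knockouts, from 3084, 2753, 873, 4517 and 3107 counts. Knockout 2 exceeded control 1 by a ratio of 1.05, so the groups were separated by less than the spread among the controls. The log2 fold change was 0.52 (SE 0.22, adjusted p = 0.302 by edgeR). Pou2af1 (ENSMUSG00000032053, chromosome 9, 51213708 to 51240080), which encodes the octamer coactivator OBF1 of B cells and plasma cells, was at 47.1, 54.3 and 24.2 CPM against 68.2 and 37.1 CPM, from 1744, 1962, 386, 2612 and 1316 counts. Knockout 2 lay below controls 1 and 2. The log2 fold change of 0.33 (SE 0.38, adjusted p = 0.749 by edgeR) became -0.20 without knockout 1. An intronic transcript on the same strand, Gm47828, was not analysed here.

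Of the surface proteins, Sdc1 (ENSMUSG00000020592, chromosome 12, 8771323 to 8793715) encodes syndecan-1 or CD138, the marker by which plasma cells are usually sorted. It was at 8.50, 4.23 and 4.25 CPM in the controls and 13.8 and 11.4 CPM in the knockouts, from 315, 153, 68, 530 and 403 counts. Both knockouts lay above the controls, the lower by a ratio of 1.34. Its log2 fold change was 1.15 (SE 0.36, 95% interval 0.28 to 2.01, adjusted p = 0.192 by edgeR).

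Tnfrsf17 (ENSMUSG00000022496, chromosome 16, 11313812 to 11320074) encodes BCMA, the receptor for the survival factor APRIL on long-lived plasma cells, and was the sparsest member in counts. It had 55, 2 and 12 counts in the controls and 44 and 16 in the knockouts, or 1.48, 0.055 and 0.75 CPM against 1.15 and 0.45 CPM. The controls alone spanned a ratio of 26.8, and the 95% interval of its log2 fold change of 0.067 ran from -2.51 to 2.65 (adjusted p = 0.986 by edgeR). Tnfrsf13b (ENSMUSG00000010142, chromosome 11, 61126755 to 61149372) encodes TACI, a receptor for BAFF and APRIL on B cells and plasma cells. It was at 38.0, 27.6 and 24.0 CPM against 32.5 and 22.0 CPM, from 1409, 996, 383, 1243 and 781 counts. It was the member with a log2 fold change below 0, at -0.14 (SE 0.26, 95% interval -0.75 to 0.48, adjusted p = 0.856 by edgeR), and the groups overlapped. A processed pseudogene on the opposite strand, Gm12269, overlaps it and had 0 counts in all 5 libraries.

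Among the secretory genes, Jchain (ENSMUSG00000067149, chromosome 5, 88519809 to 88527891) encodes the joining chain that links IgM and IgA into polymers. It was at 1029, 308 and 456 CPM in the controls and 1311 and 991.5 CPM in the knockouts, from 38122, 11134, 7295, 50219 and 35204 counts. Control 1 lay between the knockouts, and the controls spanned a ratio of 3.34. The log2 fold change was 0.95 (SE 0.47, 95% interval -0.18 to 2.07, adjusted p = 0.398 by edgeR), and ran from 0.64 without control 2 to 1.60 without control 1.

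Derl3 (ENSMUSG00000009092, chromosome 10, 75893413 to 75895941) encodes derlin-3, which serves the removal of misfolded proteins from the ER. It was at 5.18, 2.96 and 2.13 CPM against 10.3 and 7.24 CPM, from 192, 107, 34, 394 and 257 counts. Both knockouts lay above the controls, the lower by a ratio of 1.40. Its log2 fold change was 1.34 (SE 0.41, 95% interval 0.35 to 2.33), with an adjusted p of 0.18 by edgeR and 0.0426 by DESeq2. Creld2 (ENSMUSG00000023272, chromosome 15, 88819646 to 88826683), an ER-stress-induced disulfide isomerase whose promoter holds the same element as Derl3, was at 26.1, 35.1 and 26.7 CPM against 33.6 and 36.2 CPM, from 967, 1270, 426, 1287 and 1284 counts. Control 2 exceeded knockout 1, and the log2 fold change was 0.25 (SE 0.18, 95% interval -0.17 to 0.67, adjusted p = 0.564 by edgeR). Fkbp11 (ENSMUSG00000003355, chromosome 15, 98724366 to 98728198), a peptidyl-prolyl isomerase of the ER, was at 0.59, 0.83 and 0.38 CPM against 1.44 and 1.38 CPM. These values rest on 22, 30 and 6 counts against 55 and 49. The knockouts lay above the controls, and the log2 fold change was 1.19 (SE 0.48, 95% interval 0.039 to 2.35, adjusted p = 0.289 by edgeR).

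**Figure D2:**
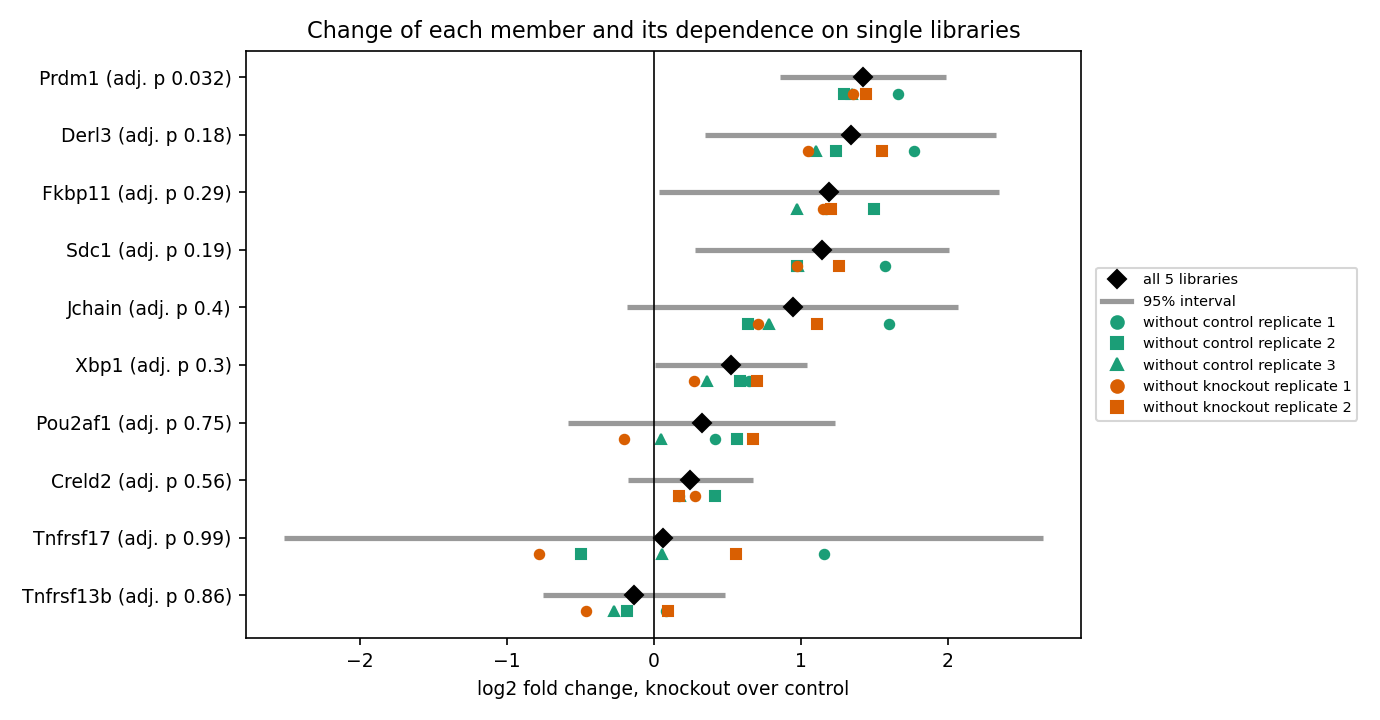
Log2 fold change of each member, knockout over control, from all 5 mouse libraries (diamond) with its 95% interval (grey bar), and the same value with each library left out (green, a control; orange, a knockout). Prdm1 stays between 1.30 and 1.66 whichever library is left out, while Tnfrsf17 runs from -0.78 to 1.16.

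Levels could be compared roughly between genes after division by the length of each gene's merged exons. That length covers the exons of all annotated transcripts and can exceed the message expressed, so the order of neighbouring genes is uncertain. Jchain was far above the others in the controls at 238 ± 151 CPM per kilobase (SD, n = 3). Xbp1 (22.0 ± 4.59), Creld2 (21.4 ± 3.70) and Pou2af1 (16.4 ± 6.17 CPM per kilobase) followed, and their control libraries overlapped from each to the next. Tnfrsf13b (10.5 ± 2.58 CPM per kilobase) overlapped with Pou2af1 but not with the genes below it. Prdm1 (1.96 ± 0.51), Derl3 (1.72 ± 0.79), Sdc1 (1.49 ± 0.65), Tnfrsf17 (0.94 ± 0.88) and Fkbp11 (0.22 ± 0.084 CPM per kilobase) formed the lower part of the order, each overlapping with the next. In the knockouts Prdm1 had a mean of 5.26 and Derl3 of 4.40 CPM per kilobase.

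The genes whose course over the 5 libraries was most like that of Jchain were sought among 10317 genes with a mean of at least 5 CPM, by the distance between log2(CPM + 1) values centred on each gene's mean. The nearest 5 were the immunoglobulin segments Ighv1-62-3, Igkv9-120, Ighj4, Ighv14-3 and Igkv1-117, at distances of 0.155 to 0.381. Among the members, Sdc1 (0.64), Derl3 (0.83) and Prdm1 (0.87) were the closest to Jchain and Creld2 (1.83) the farthest. Igkv1-117, for example, was at 95.7, 28.8 and 37.9 CPM in the controls and 149 and 113 CPM in the knockouts, with the low values in controls 2 and 3 as in Jchain.

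The antibody message itself was compared with the members. Of 10 immunoglobulin constant genes tested, 4 were called higher by edgeR and 0 lower, beside 2.68% higher and 0.15% lower of all genes tested. The median log2 fold change of the 10 was 1.28. The genes called were Ighg2b, Ighg2c, Ighg1 and Ighm, the heavy chains of IgG2b, IgG2c, IgG1 and IgM. Ighg2b was at 153, 128 and 66.8 CPM against 1489 and 1496 CPM, a log2 fold change of 3.68 (adjusted p = 0.0084 by edgeR). Ighm was at 1756, 1938 and 1200 CPM against 5511 and 3891 CPM, a log2 fold change of 1.53 (adjusted p = 0.0298 by edgeR). These calls depended on single libraries, as calls over the whole mouse table did (412 genes higher with all libraries, 6 without control 1). All 4 were lost without control 1 or without knockout 2, with adjusted p by edgeR of 0.0564 to 0.152 and 0.0563 to 0.216, and Ighm (0.218) and Ighg1 (0.0779) also without knockout 1. DESeq2 called 6 of the 10 higher, adding Ighg3 and Igkc, beside 6.1% higher of all genes tested. Igkc, the kappa light chain, had a log2 fold change of 1.33 (adjusted p = 0.103 by edgeR), and Igha, the heavy chain of IgA, was at 3502, 854 and 1743 CPM against 2868 and 1366 CPM, a log2 fold change of 0.058 (adjusted p = 0.977 by edgeR). Jchain counts came to 19.6, 11.0 and 15.5% of the summed Ighm and Igha counts in the controls and 15.65 and 18.9% in the knockouts, so the groups overlapped. Ighg2b counts came to 8.70, 6.62 and 5.57% of Ighm counts in the controls and 27.0 and 38.4% in the knockouts, without overlap.

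Of 18 other plasma cell genes, edgeR called Ell2 alone, and 0 lower, beside 2.68% higher and 0.15% lower of all genes tested. Ell2, an elongation factor that favours the secreted form of heavy-chain message, was at 10.1, 12.01 and 8.01 CPM in the controls and 41.5 and 33.0 CPM in the knockouts. Both knockouts were far above the controls, with a log2 fold change of 1.88 (SE 0.22, adjusted p = 0.0118 by edgeR). Without control 1, knockout 1 or knockout 2 its adjusted p was 0.0777, 0.102 and 0.0992. At an unadjusted p under 0.05, 6 of the 18 were higher and 0 lower, beside 10.2% higher and 6.01% lower of all genes tested. The median log2 fold change was 0.34, and in 7 both knockouts lay above all controls, as in 18.2% of all genes tested. DESeq2 called 3 higher, Ell2, Bhlha15 and Slamf7, and 0 lower, beside 6.1% higher of all genes tested. Slamf7, a surface receptor of plasma cells that cytotoxic lymphocytes also carry, had a log2 fold change of 0.93 (adjusted p = 0.0513 by edgeR). Irf4, the factor that plasma cell differentiation and T cell activation both require, had 0.69 (adjusted p = 0.205 by edgeR), and Mzb1, an ER chaperone of B cells and plasma cells, had 0.62 (adjusted p = 0.378 by edgeR).

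**Figure D3:**
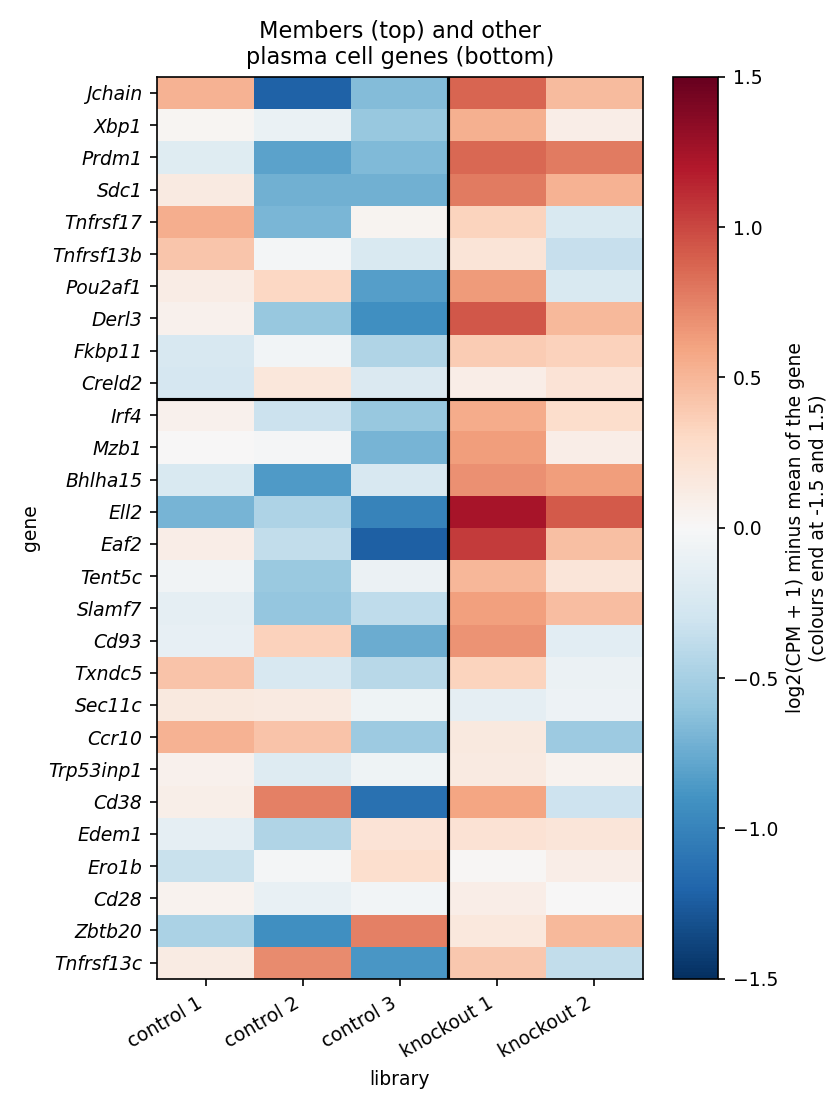
Level of the 10 members (above the line) and of 18 other plasma cell genes (below it) in the 5 mouse libraries, as log2(CPM + 1) minus the mean of each gene, with red above and blue below that mean. Ell2 and Prdm1 are red in both knockouts and blue in all controls, while Tnfrsf13b, Pou2af1, Cd38 and Tnfrsf13c are not split by group.

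Of 40 further ER folding and unfolded protein response genes, edgeR called 0 in either direction, with 2 higher (Atf6 and Canx) and 0 lower at an unadjusted p under 0.05, and DESeq2 called 1 higher, Atf6. Their median log2 fold change was 0.027, and both knockouts lay above all controls in 12 of the 40 and below them in 2. Of all genes tested, edgeR called 2.68% higher and 0.15% lower, and DESeq2 called 6.1% higher and 1.86% lower. At an unadjusted p under 0.05, 10.2% were higher and 6.01% lower, and 18.2% lay above all controls in both knockouts. The share lying below was not computed. Hspa5, the chaperone BiP, was at 333, 385 and 413 CPM against 420 and 545 CPM, a log2 fold change of 0.35 (adjusted p = 0.374 by edgeR). Atf6, an ER stress sensor that is cleaved to a transcription factor, was at 20.1, 20.6 and 22.0 CPM against 36.6 and 32.8 CPM, a log2 fold change of 0.73 (adjusted p = 0.0529 by edgeR); it is named as the single gene of the list that DESeq2 called.

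Markers of other cells in the isolated T cells were read beside these results. B cell markers, 22 of 22 tested, had summed levels of 740, 1309 and 211 CPM in the controls and 1021 and 476 CPM in the knockouts, with a median log2 fold change of -0.51. By edgeR 0 of them were called, with 1 lower and 0 higher at an unadjusted p under 0.05, and the 1 was Cd72, which DESeq2 called lower. Of all genes tested, 6.01% were lower at that unadjusted p, and DESeq2 called 1.86% lower. Ms4a1 (CD20) was at 21.6, 40.6 and 2.75 CPM against 17.3 and 3.66 CPM, and Cd79a was at 32.8, 62.1 and 5.38 CPM against 22.4 and 9.44 CPM. Neither was at 0 in any library, and both were highest in control 2, where Jchain was lowest. Myeloid markers were also highest in control 2, summing to 167, 464 and 43.0 CPM in the controls against 157 and 105 CPM. Natural killer cell markers summed to 216, 213 and 191 CPM against 195 and 253 CPM, highest in knockout 2. Megakaryocyte and platelet markers summed to at most 15.4 CPM in any library. Plasmacytoid dendritic cell markers, 8 of 10 tested, summed to 232 to 343 CPM in the controls and 230 and 211 CPM in the knockouts. Within this list Siglech was at 0.94, 1.13 and 0.19 CPM against 0.26 and 0.084 CPM. The sum therefore came mostly from other genes of the list, Ccr9 among them. By edgeR 0 of the list were called, with 2 lower and 0 higher at an unadjusted p under 0.05, beside 6.01% lower of all genes tested. DESeq2 called 1 lower, Ccr9, beside 1.86% lower of all genes tested. By edgeR, 2.68% of all genes tested were called higher and 0.15% lower.

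Effector and regulatory T cells also use Prdm1. Of 18 genes of these cells, edgeR called 6 higher, namely Tigit, Gzmb, Klrg1, Lag3, Ikzf2 and Maf, and 0 lower, and DESeq2 called 11 higher and 0 lower. At an unadjusted p under 0.05, 11 were higher and 0 lower. Of all genes tested, 2.68% were called higher by edgeR, 6.1% by DESeq2, and 10.2% were higher at an unadjusted p under 0.05. All 6 edgeR calls were lost without control 1, without knockout 1 or without knockout 2, with adjusted p of 0.0564 to 0.348, and that of Klrg1 also without control 2 (0.0562). Over the 18, the median log2 fold change was 1.06, with 14 above 0 and 4 below. Those below were Tbx21 (-0.13), Eomes (-0.030), Gata3 (-0.029) and Batf (-0.062). Foxp3 had 0.36 (adjusted p = 0.373 by edgeR). The summed level of the 18 was 627, 601 and 605 CPM against 935 and 1075 CPM. Prdm1 counts came to 4.17, 1.97 and 2.52% of Cd3e counts in the controls and 10.8 and 10.01% in the knockouts. In both knockouts Prdm1 was higher and Cd3e lower than in all controls, so this ratio could not overlap between the groups. It therefore adds nothing to the call of Prdm1. Cd3e itself, a chain of the T cell receptor complex, was at 338, 446 and 390 CPM against 280 and 284 CPM, a log2 fold change of -0.47 (adjusted p = 0.205 by edgeR). Proliferation genes (6 of 12 called higher, median 1.90) and erythroid markers (7 of 13 called higher, median 2.63) were also higher in both knockouts than in all controls in 12 of 12 and 13 of 13 cases. Of all genes tested, 2.68% were called higher and 18.2% lay above all controls in both knockouts. Summed, the proliferation genes were at 344 to 588 CPM in the controls against 1394 and 1579 CPM. The erythroid markers were at 608 to 2284 CPM against 4686 and 6514 CPM. The part of plasma cells, B cells, activated T cells, dividing cells or erythroid cells in the change of Prdm1 and of the other members was not tested.

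**Figure D4:**
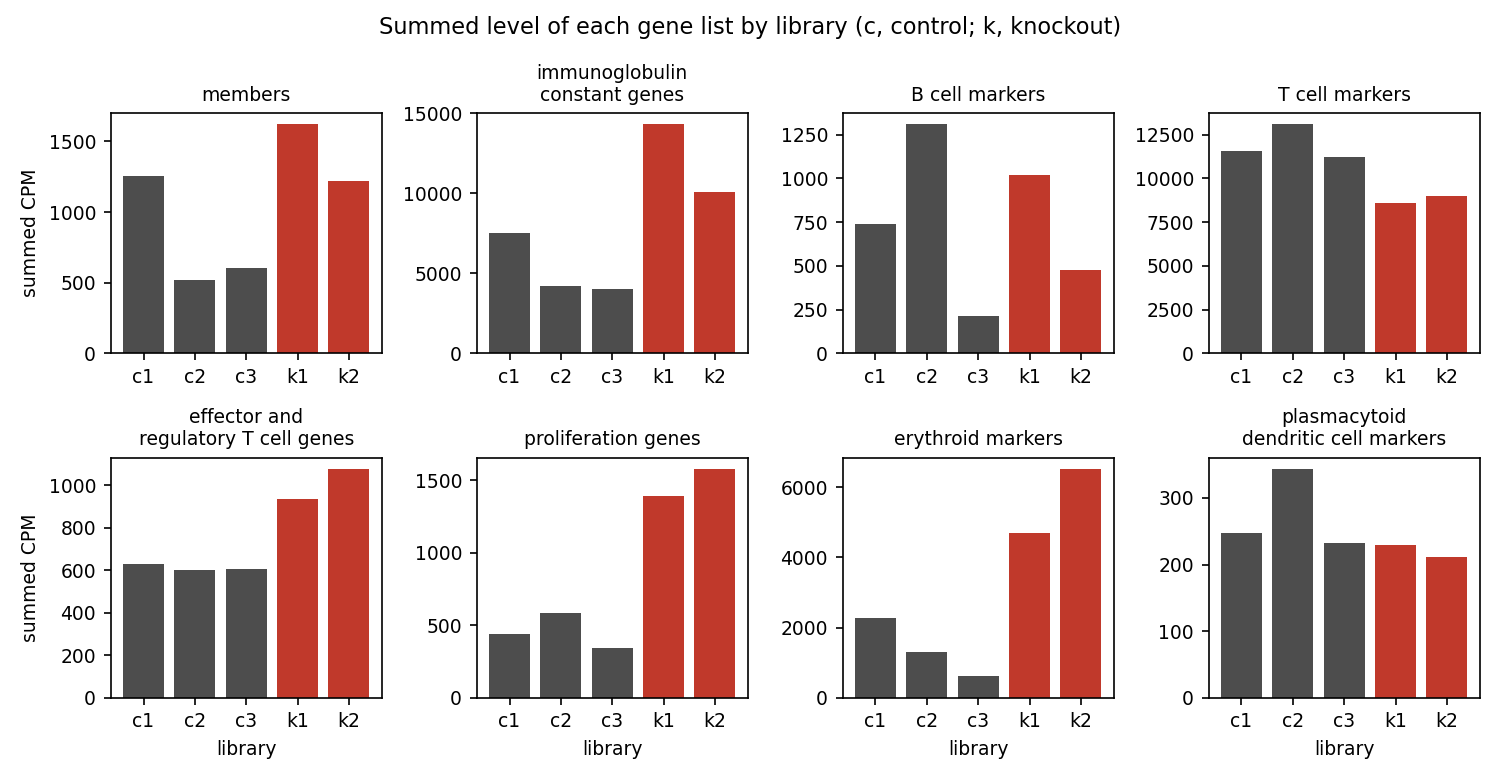
Summed CPM of the members and of 7 other gene lists in each mouse library, controls in grey (c1 to c3) and knockouts in red (k1 and k2), each panel on its own linear axis from 0. The immunoglobulin constant genes and the effector, proliferation and erythroid lists are higher in both knockouts than in all controls, B cell markers are highest in control 2 (1309 CPM), and the members' sum follows Jchain.

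The human orthologs were examined in J.gamma1 cells, where IRF2BP2 was at 204 and 199 CPM with shNC and 79.0 and 93.8 CPM with shIRF2BP2 (log2 fold change -1.22, adjusted p = 0.00229 by edgeR). Of the 10 orthologs, 6 had enough counts to be tested and 1 was called, beside 11.2% of the 15819 human genes tested that were called in either direction. PRDM1 was the gene called, at 1.74 and 1.87 CPM with shNC and 4.46 and 4.95 CPM with shIRF2BP2, from 45, 58, 130 and 146 counts. Its log2 fold change was 1.38 (SE 0.29, adjusted p = 0.0242 by edgeR), with an adjusted p of 0.0619 and 0.0858 when either knockdown library was left out. POU2AF1 was at 9.11 and 10.02 CPM against 6.01 and 5.29 CPM, a log2 fold change of -0.76 with an adjusted p of 0.0626 by edgeR and 0.0357 by DESeq2. XBP1 was at 53.5 and 58.5 CPM against 48.0 and 36.2 CPM (log2 fold change -0.41, adjusted p = 0.141 by edgeR), and DERL3 at 1.04 and 1.13 CPM against 0.89 and 0.41 CPM (log2 fold change -0.74, adjusted p = 0.416 by edgeR). FKBP11 and CRELD2 had log2 fold changes of 0.025 and 0.11, with adjusted p of 0.941 and 0.639 by edgeR. JCHAIN, SDC1, TNFRSF17 and TNFRSF13B, which had at most 15 counts in any library, were too low to test. The mouse and human changes came from different cells and tables, with a deletion in mouse and a partial knockdown in J.gamma1. The difference between them was not tested.

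**Figure D5:**
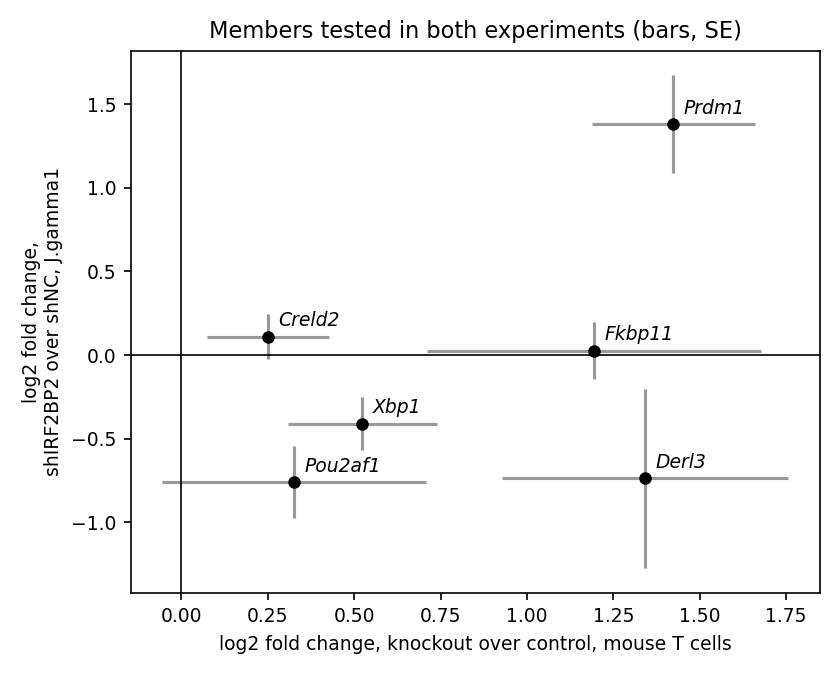
Log2 fold change in mouse T cells (knockout over control, x axis) and in J.gamma1 cells (shIRF2BP2 over shNC, y axis) for the 6 members tested in both, each with its SE as a bar in either direction. Prdm1 is at 1.42 and 1.38, while Derl3 is at 1.34 in mouse and -0.74 in J.gamma1.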

How the data were processed

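Total RNA of CD3+ T cells from mouse spleen (5 libraries) and of J.gamma1 cells (4 libraries) was made into TruSeq libraries and sequenced. The authors deposited 1 table of whole-number read counts per gene for each species. The submitters' processing notes name HISAT2 2.2.0 and StringTie with the builds mm10 and hg38, and the counting and strand settings are not given in the sources used here. Counts of replicates were not pooled. Nothing states that replicates came from separate animals or cultures, so p-values measure the spread between these libraries, which may be technical.

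Identifiers were matched to GENCODE M21 (mouse) and 44 (human), which named 42462 of 43432 mouse rows holding 99.8% of counts, and 56105 of 64252 human rows holding 98.0%. Genes were filtered with filterByExpr, scaled by TMM and tested with the edgeR 4.0.16 quasi-likelihood test, group as the single term, in R 4.3.3, with Benjamini-Hochberg adjustment over all genes tested and a call at 0.05. The mouse fit had 3 residual degrees of freedom. DESeq2 1.42.0, other scalings and filters, counts divided by 2, a fold threshold, each library left out and the replicate number as a block were tried as alternatives. Limits for a count of 0 were set at 3 counts and cover counting error only. Every member was described. Of other lists, up to 6 called genes and fixed reference genes were named. Atf6, Canx, Bhlha15, Slamf7, Cd72, Ccr9, Siglech, Ighg3, Igha, Foxp3, Tbx21, Eomes, Gata3 and Batf were named after their values were seen. The members and all gene lists were chosen with earlier results of these data known. Promoters were scanned in Python 3.11.15. Iglc1 and Iglc3 were not analysed here, and a further reference gene is not reported here.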

Additional observations from a re-analysis of the deposited data

Results flagged for a closer look

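Xbp1 and Derl3 lay on opposite sides in the 2 experiments. In mouse T cells both knockout libraries were above all controls, with log2 fold changes of 0.52 for Xbp1 and 1.34 for Derl3, while in J.gamma1 cells both shIRF2BP2 libraries were below both shNC libraries, with log2 fold changes of -0.41 for XBP1 and -0.74 for DERL3. By edgeR, 0 of these 4 changes had an adjusted p under 0.05, DESeq2 gave 0.0426 for Derl3 in mouse, and the difference between the experiments was not tested. Of all mouse genes tested, 18.2% had both knockouts above all controls. The share of human genes with both shIRF2BP2 libraries below both shNC libraries was not computed. DERL3 had 12 to 35 counts per library in J.gamma1 cells.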

How the results depend on the processing

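Each mouse result was recomputed under 15 alternatives and each human result under 13. The members called numbered 1 with all libraries, 2 with DESeq2 and 0 to 1 with a library left out, and other plasma cell genes called numbered 1, then 3 with DESeq2, 2 with RLE scaling, 2 with a filter of 1 count in any library, 2 with 10 counts in every library, 2 with counts divided by 2 and 0 to 2 with a library left out. ER folding genes called numbered 0, and 1 with DESeq2, with 10 counts in every library and with counts divided by 2. Human orthologs called numbered 1, then 2 with DESeq2, 0 with a filter of 1 count in any library and 0 to 1 with a library left out. The replicate numbers shared between groups did not mark a pairing in the labels, and the correlation of deviations was 0.21 for number 1 and -0.109 for number 2 in mouse and 0.287 in J.gamma1. With the replicate block, 1 member was called in mouse, 1 other plasma cell gene (2 with the shared numbers alone, where the adjusted p of Ighm was 0.0515 and of Klrg1 0.0501), 0 ER folding genes and 2 human orthologs, with adjusted p of 0.0512 for Klrg1 and 0.0297 for Igkc over all libraries. Directions turned for Tnfrsf17 (-0.50 without control 2, with a range of -0.78 to 1.16 over libraries left out), Tnfrsf13b (0.084 without control 1, range -0.46 to 0.096), Pou2af1 (-0.20 without knockout 1, range up to 0.68, and -0.0059 and -0.011 with the replicate block over all libraries and the shared numbers) and FKBP11 (-0.028 with upper-quartile scaling, -0.0052 with 1 count in any library, -0.071 without shNC 2, range -0.083 to 0.12). All of these had adjusted p above 0.05, and the cause was not tested. Of 148 recomputed member values, 136 kept direction and side of the threshold. This count says little of robustness, since 9 of the 10 members had no call to lose. The fold threshold reused the main fit, so its member values could not differ. The call of Prdm1, the 1 member called, depended on single libraries as given above. Over the whole mouse table edgeR called 6 genes higher without control 1, 9 without knockout 2 and 47 without knockout 1, beside 412 with all libraries.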
